A study of Homo sapiens with 12 samples.

Results

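The fibroblast growth factor (FGF) receptors FGFR1 to FGFR4, the co-receptor KLB and 5 FGF ligands linked to liver cancer (FGF2, FGF8, FGF18, FGF19 and FGF21) were examined in HA22T and PLC5 cells, a pair of human hepatocellular carcinoma (HCC) lines. The members were chosen by gene symbol through the RefSeq transcript of each array probe, which gave 15 probes of 10 genes among the 20503 genes named on the array. FGFR1, FGFR2, FGFR3, KLB and FGF2 had 2 probes each, and the other 5 members had 1. RNA was collected from 4 groups of 3 one-color arrays. HA22T and PLC5 cells were each transfected with a non-targeting siRNA (siControl) or with a pool of siRNAs against GALNT1 (siGALNT1), at 10 nM for 48 h. GALNT1 encodes a transferase that starts mucin-type O-glycosylation. Cells of all 4 groups grew in DMEM with fetal bovine serum and received the same transfection reagent, and no untransfected cells were among them. Nothing in the labels shows that replicates came from separate cultures, so p-values measure the spread between these samples, which may be technical.

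FGF ligands are secreted and bind receptor tyrosine kinases at the cell surface. Most ligands signal close to their source together with heparan sulphate, whereas FGF19 and FGF21 act as hormones and need a Klotho protein beside the receptor. In liver, KLB (beta-Klotho) pairs mainly with FGFR4, and FGF19 from the intestine represses bile acid synthesis in hepatocytes through this pair. FGF21 is made by hepatocytes under nutrient stress, and FGF19 is gained together with CCND1 in some HCC. Active receptors pass the signal through FRS2 to the MAPK cascade, which induces its own inhibitors (Sprouty proteins and DUSP6) and ETS factors such as ETV4 and ETV5.

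Among the 10 members, 7 had an entry in the RefSeq promoter table (build GRCh38.p14). The 250 bases before the start are shown for members that were higher in PLC5 (KLB, FGFR3, FGFR4), lower in PLC5 (FGF2) or not called different between the lines (FGF21), so that promoters of genes that differed between the lines in either direction stand side by side. All 5 genes lie on the plus strand, and their windows are chr4:39406680-39406929 (KLB), chr4:1793043-1793292 (FGFR3), chr5:177086665-177086914 and chr5:177089300-177089549 (the upstream and downstream start of FGFR4), chr4:122826581-122826830 (FGF2) and chr19:48755274-48755523 (FGF21). Capitals mark matches, on either strand, to 7 motifs. General promoter elements were GGGCGG, the GC box, and TATAAA, the TATA box. Motifs of liver factors were CAAAGTCCA for HNF4 and TGTTTAC for forkhead factors. The others were AGGTCA for nuclear receptors, CACGTG as the E-box and TTGCATCA for ATF4. No motif is part of another.
KLB: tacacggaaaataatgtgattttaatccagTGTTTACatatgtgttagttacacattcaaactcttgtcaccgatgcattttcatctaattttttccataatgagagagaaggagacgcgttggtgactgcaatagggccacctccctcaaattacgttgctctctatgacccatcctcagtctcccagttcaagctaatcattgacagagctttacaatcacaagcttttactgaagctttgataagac
FGFR3: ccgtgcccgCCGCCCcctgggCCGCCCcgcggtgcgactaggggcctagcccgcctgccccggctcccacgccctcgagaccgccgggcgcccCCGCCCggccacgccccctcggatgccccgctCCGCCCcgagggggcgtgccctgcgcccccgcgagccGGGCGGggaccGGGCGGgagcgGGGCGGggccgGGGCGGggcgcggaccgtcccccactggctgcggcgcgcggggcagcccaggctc
FGFR4 upstream start: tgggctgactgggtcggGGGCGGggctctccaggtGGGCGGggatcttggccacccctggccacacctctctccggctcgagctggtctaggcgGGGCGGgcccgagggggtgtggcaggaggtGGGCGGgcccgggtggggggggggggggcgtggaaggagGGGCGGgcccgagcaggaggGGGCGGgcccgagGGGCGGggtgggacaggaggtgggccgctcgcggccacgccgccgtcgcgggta
FGFR4 downstream start: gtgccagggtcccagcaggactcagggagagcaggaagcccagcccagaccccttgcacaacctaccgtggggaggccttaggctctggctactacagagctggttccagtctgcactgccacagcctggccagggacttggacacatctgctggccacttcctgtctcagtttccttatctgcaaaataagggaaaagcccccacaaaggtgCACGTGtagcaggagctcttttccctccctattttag
FGF2: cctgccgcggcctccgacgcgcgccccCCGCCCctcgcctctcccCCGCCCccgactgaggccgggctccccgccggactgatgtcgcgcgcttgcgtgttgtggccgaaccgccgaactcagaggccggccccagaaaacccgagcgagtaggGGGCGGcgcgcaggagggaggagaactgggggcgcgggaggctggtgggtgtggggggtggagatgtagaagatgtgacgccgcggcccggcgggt
FGF21: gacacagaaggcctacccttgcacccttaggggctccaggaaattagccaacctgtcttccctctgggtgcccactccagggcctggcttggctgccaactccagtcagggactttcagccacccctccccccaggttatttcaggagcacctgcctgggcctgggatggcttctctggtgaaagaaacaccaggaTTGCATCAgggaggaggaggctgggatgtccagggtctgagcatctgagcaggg
The KLB window held 5 CpG dinucleotides and 1 forkhead match (TGTTTAC), which stands in 2.98% of the 35116 promoter windows in the table. The upstream FGFR4 window held 7 GC box matches and 24 CpG, and the FGFR3 window 8 matches and 40 CpG, beside a median of 11 CpG over the table. The FGF2 window was of the same kind, with 3 GC box matches and 33 CpG, so that members higher in PLC5 and a member lower in PLC5 shared this feature. Members not called between the lines had it too. Among windows not shown, FGF18 held 3 GC box matches and 31 CpG, and 1 start of FGFR2 held 3 and 42. The other FGFR2 starts held 3 to 7 CpG. GC boxes stand in 42.6% of all windows. The downstream FGFR4 window had 1 E-box match (6.34% of windows) and 2 CpG. The FGF21 window had 1 match to the ATF4 motif (0.772% of windows) and no CpG. A match is a description of letters, and no binding was measured here.

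The arrays held 58717 spots that are not controls, of which between 36679 and 48873 were well above background. Values below are log2 of the processed signal minus the 75th percentile of the array, so that 0 is the level of that percentile, and a probe's values are compared between samples and not with another probe's. The lowest signal well above background lay between -6.64 and -4.08 on this scale, which limits the dim members. GALNT1, the target of the siRNA, had values of 1.32, 0.75 and 0.85 in HA22T siControl and -3.15, -3.68 and -5.55 in HA22T siGALNT1 on its brighter probe. In PLC5 these were 0.87, 0.37 and 0.61 against -1.93, -3.47 and -3.92, so the groups did not overlap in either line. The dimmer probe was the 1 probe of 36327 called in HA22T (limma, adjusted p = 0.0305), and its adjusted p was 0.107 with the replicate pair as a block. All HA22T arrays and the first replicate pair of PLC5 were on 1 slide, and PLC5 replicates 2 and 3 on another.

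The clearest pattern was between the cell lines. With siControl, KLB, FGFR3 and FGFR4 were higher in PLC5, whereas FGFR1, FGF2 and FGF8 were higher in HA22T. FGF18, FGF21 and FGFR2 were not called, and FGF19 was above background on too few arrays to be tested. Of the 13 member probes tested, 5 were called higher and 5 lower in PLC5 at an adjusted p below 0.05, beside 11.0% of all 38011 tested probes called higher and 11.0% called lower. Of these 10 probes, 3 (the leading KLB probe and both FGF2 probes) were above background in 1 line alone and entered the test through the line where they were high, so their calls were bound to show a difference and add no support. With siGALNT1, on arrays that share none with the siControl comparison, the same 6 genes were called in the same directions. Of 13 probes, 5 were again called higher and 5 lower, beside 13.1% of 36741 probes called higher and 9.79% called lower. Both KLB probes and the leading FGF2 probe were above background on 3 arrays of their high line and 1 of the other. The high line alone was enough to enter them in the test, so their calls add little support. All groups were fitted together with a shared spread, so the siGALNT1 calls are not an independent test.

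**Figure D1:**
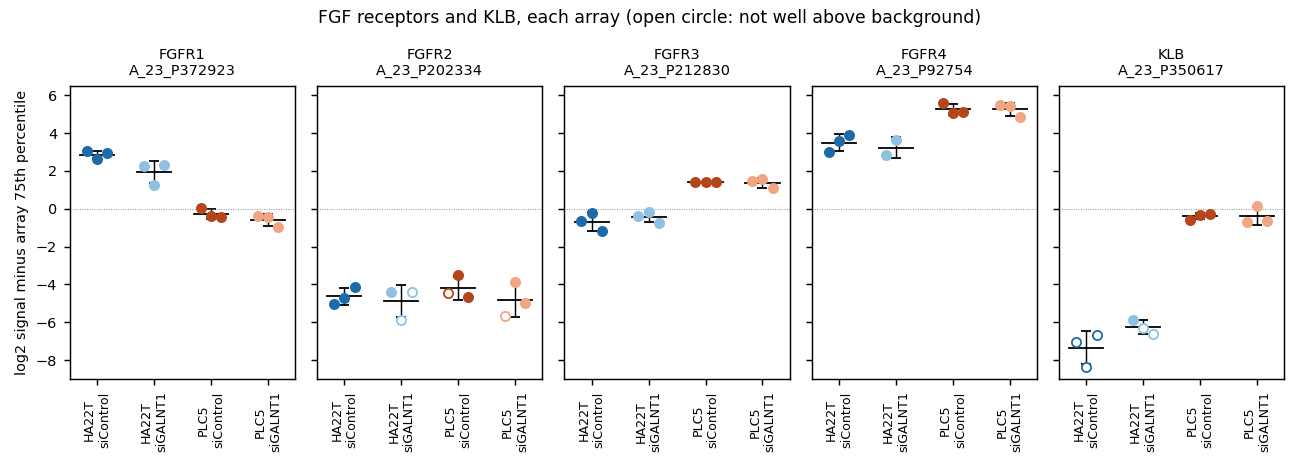
Log2 signal minus the array's 75th percentile (vertical axis) of the leading probe of each FGF receptor and of KLB in the 4 groups; each circle is 1 array (open: not well above background), and the line and bar give mean and SD. KLB lies between -8.34 and -5.88 on the HA22T arrays and between -0.71 and 0.15 on the PLC5 arrays, FGFR1 is higher in HA22T, and FGFR2 stays near background in both lines.

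KLB, the co-receptor for FGF19 and FGF21, differed most among the receptors. Its leading probe (A_23_P350617) read -0.58, -0.35 and -0.26 in PLC5 siControl and -7.03, -8.34 and -6.70 in HA22T siControl. No HA22T siControl array was well above background, against all 3 of PLC5, so the difference is a bound. On this probe and scale, KLB was at least 35.6-fold higher in PLC5 (limma, adjusted p = 6.76e-07). The bound was reckoned against the lowest signal that each HA22T array measured well above background. The p-value itself uses HA22T values below background. With siGALNT1 the values were -0.71, 0.15 and -0.63 in PLC5 and -5.88, -6.33 and -6.60 in HA22T, where 1 of 3 arrays was above background, and the log2 difference was 5.87 (SE 0.42, adjusted p = 2.45e-06). The dimmer probe (A_32_P33114) gave a smaller difference, 2.27 (SE 0.45) with siControl and 2.93 (SE 0.45) with siGALNT1. With normexp background correction the log2 differences were smaller, 4.06 and 3.99 on the leading probe and 1.34 and 1.47 on the dimmer one, with siControl and siGALNT1, and the calls were kept. The siControl differences with normexp and on the dimmer probe lie below the bound of 35.6-fold, so it is not firm.

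FGFR4, the main FGF receptor of hepatocytes, read 5.58, 5.05 and 5.12 in PLC5 siControl and 2.99, 3.6 and 3.88 in HA22T siControl. The lines did not overlap, and PLC5 was 3.39-fold higher (log2 difference 1.76, SE 0.34, adjusted p = 0.00371). With siGALNT1 it read 5.47, 5.44 and 4.87 in PLC5 and 2.82 and 3.61 in HA22T, where the spot of replicate 3 was marked as non-uniform and left out of the fit. The log2 difference there was 2.04 (SE 0.38, adjusted p = 0.00306), which the methods' t-test did not call (adjusted p = 0.0800). FGFR4 was well above background on every array that had a value.

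FGFR3 was also higher in PLC5 on both of its probes. The leading probe (A_23_P212830) read 1.39, 1.40 and 1.41 in PLC5 siControl and -0.66, -0.20 and -1.18 in HA22T siControl, a 4.25-fold difference (log2 2.09, SE 0.29, adjusted p = 0.000313). The second probe (A_23_P500501) read 2.10, 1.64 and 1.82 against -1.02, -1.04 and -0.89, a 7.13-fold difference (log2 2.83, SE 0.29, adjusted p = 3.01e-05). With siGALNT1 the log2 differences were 1.82 and 3.05. The lines did not overlap on either probe with either siRNA, and all 12 arrays were well above background.

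FGFR1, the receptor typical of mesenchymal cells, ran the other way. Its leading probe (A_23_P372923) read 3.03, 2.63 and 2.93 in HA22T siControl and 0.03, -0.40 and -0.44 in PLC5 siControl. HA22T was 8.76-fold higher (log2 difference, PLC5 minus HA22T, -3.13, SE 0.32, adjusted p = 3.30e-05). The second probe (A_23_P301304) gave -2.70 (SE 0.36, adjusted p = 0.000214). With siGALNT1 the log2 differences of these probes were -2.53 and -2.39. FGFR1 was thus higher in both HA22T groups than in both PLC5 groups, which overlapped each other. The difference between the HA22T groups was not called.

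FGFR2, whose splice forms divide between epithelial and mesenchymal cells, was near background in both lines. Its leading probe (A_23_P202334) read -5.05, -4.70 and -4.14 in HA22T siControl and -4.46, -3.51 and -4.64 in PLC5 siControl. The lines overlapped, and the log2 difference was 0.43 (95% confidence interval -0.76 to 1.61, adjusted p = 0.634). The second probe (A_24_P206624) was above background on 0 of 6 HA22T arrays and 3 of 6 PLC5 arrays and was not tested between the lines. With siGALNT1 the log2 difference of the leading probe was 0.06, and its sign turned with quantile normalization (-0.08), with normexp (-0.03) and with the slide as a block (-0.48).

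**Figure D2:**
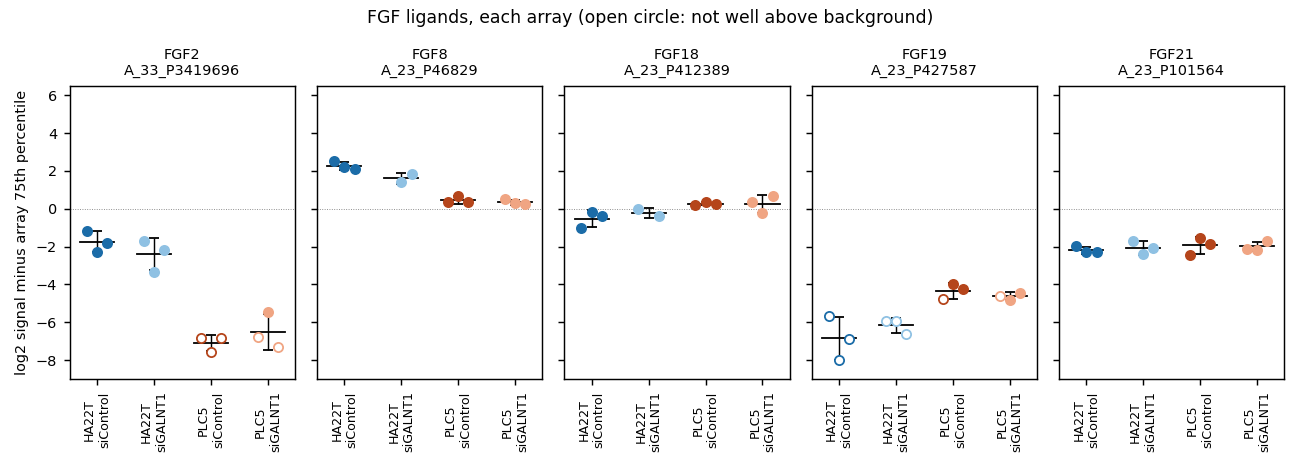
Log2 signal minus the array's 75th percentile (vertical axis) of the leading probe of each FGF ligand in the 4 groups; each circle is 1 array (open: not well above background), and the line and bar give mean and SD. FGF2 lies between -3.35 and -1.17 on the HA22T arrays and between -7.57 and -5.48 on the PLC5 arrays, FGF19 is at or near background, and FGF21 overlaps between the lines.

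FGF2, a ligand that lacks a signal peptide and binds FGFR1 with heparan sulphate, was higher in HA22T. Its leading probe (A_33_P3419696) read -1.17, -2.29 and -1.80 in HA22T siControl and -6.83, -7.57 and -6.83 in PLC5 siControl. None (0 of 3) of the PLC5 siControl arrays was well above background, so HA22T was at least 13.2-fold higher (adjusted p = 3.06e-05), and at least 7.90-fold on the second probe (A_33_P3379886, adjusted p = 0.000604, with 2 PLC5 arrays). These p-values use PLC5 values below background. With siGALNT1 the leading probe read -1.71, -3.35 and -2.16 in HA22T and -6.80, -5.48 and -7.33 in PLC5, where 1 of 3 arrays was above background, and the log2 difference was -4.13 (SE 0.54, adjusted p = 0.000208). With normexp the log2 differences of the 2 probes were -3.30 and -2.30 with siControl and -2.35 and -2.20 with siGALNT1, with the calls kept. The siControl differences with normexp are smaller than the bounds above, so these bounds are not firm.

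FGF8, a ligand of embryonic patterning, read 2.51, 2.20 and 2.11 in HA22T siControl and 0.33, 0.67 and 0.37 in PLC5 siControl. HA22T was 3.52-fold higher (log2 difference -1.81, SE 0.24, adjusted p = 0.000372), with no overlap. With siGALNT1 it read 1.39 and 1.81 in HA22T, with the non-uniform spot of replicate 1 left out of the fit, and 0.49, 0.29 and 0.22 in PLC5 (log2 difference -1.26, SE 0.27, adjusted p = 0.00744). This second call was lost with the 2 groups alone (adjusted p = 0.0598), with the methods' t-test (0.0560) and without HA22T siGALNT1 replicate 3 (log2 difference -1.05, adjusted p = 0.0664), which leaves 1 array there, assumed to vary like the other groups.

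FGF18, a ligand raised in some HCC, read 0.19, 0.37 and 0.25 in PLC5 siControl and -1.0, -0.17 and -0.40 in HA22T siControl. These arrays did not overlap, but the log2 difference of 0.80 (95% confidence interval 0.09 to 1.5) had an adjusted p of 0.105. With siGALNT1 the lines overlapped, with a log2 difference of 0.45 (-0.33 to 1.23, adjusted p = 0.396) over 2 HA22T arrays, since the non-uniform spot of replicate 2 was left out.

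FGF19, the ligand of FGFR4 with KLB, was above background on 4 of 6 PLC5 arrays and 0 of 6 HA22T arrays. It read -4.79, -4.0 and -4.27 in PLC5 siControl and -5.69, -8.0 and -6.88 in HA22T siControl. With 2 of 3 PLC5 arrays above background it did not reach the 3 of 6 needed for a test, and PLC5 was at least 2.29-fold higher with siControl and at least 1.13-fold higher with siGALNT1, with no p-value. Neither is a firm bound, because the PLC5 means include replicate 1, which was not above background with either siRNA, and with normexp the log2 differences were 0.65 and 0.54.

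FGF21, the hormone of the starved liver, did not differ between the lines beyond its spread. It read -2.43, -1.55 and -1.86 in PLC5 siControl and -1.98, -2.28 and -2.31 in HA22T siControl. The log2 difference was 0.24 (95% confidence interval -0.41 to 0.90, adjusted p = 0.623) with siControl and 0.07 (-0.59 to 0.72, adjusted p = 0.898) with siGALNT1. The sign turned with the slide as a block in both (-0.05 and -0.23), and with quantile normalization in the second (-0.14).

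**Figure D3:**
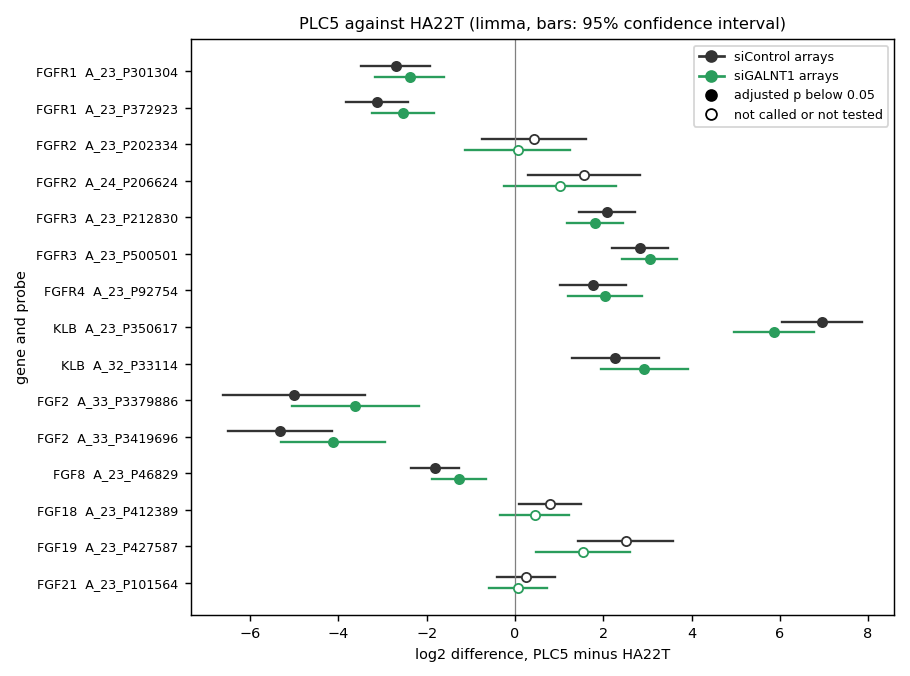
Log2 difference, PLC5 minus HA22T (horizontal axis), of each member probe with siControl (black) and siGALNT1 (green); bars are 95% confidence intervals from limma and filled circles have an adjusted p below 0.05. Both probes of KLB, FGFR3, FGFR1 and FGF2 lie on the same side with either siRNA, and FGFR2, FGF18, FGF19 and FGF21 have no filled circle.

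The slide could be separated in part from the line, because 1 PLC5 array of each siRNA shared the slide of the HA22T arrays. With the slide as a block the siControl log2 differences were -2.87 for FGFR1, 2.13 for FGFR3, 2.03 for FGFR4, 6.71 for KLB, -5.33 for FGF2 and -1.80 for FGF8 on the leading probes. Within the shared slide, 1 PLC5 array against 3 HA22T arrays gave -2.83, 2.08, 2.09, 6.77, -5.07 and -1.94 for the same genes. All 6 genes kept their call with the slide as a block in both line comparisons.

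The lines also differed in the markers of their cell type. Of the 17417 genes tested with siControl, 12.4% were called higher and 14.2% lower in PLC5, the background for each marker count here. Of 10 hepatocyte markers, 8 were higher in PLC5 with siControl and none (0) lower, with a median log2 difference of 4.49 beside -0.10 over all genes tested. Their summed level, relative to the 75th percentile, was between 6.63 and 8.33 on the HA22T siControl arrays and between 105.1 and 172 on the PLC5 siControl arrays, and with siGALNT1 between 6.5 and 9.05 in HA22T and between 92.5 and 175 in PLC5. APOB and TF differed most (log2 difference 9.55 and 9.62), and in HA22T siControl APOB was above background on 2 of 3 arrays and TF on 1. The size of these differences thus rests in part on HA22T values below background. AFP was not called. Of 4 mesenchymal markers measured, VIM (-5.54) and ZEB1 (-2.01) were lower in PLC5 and FN1, which hepatocytes also secrete, was higher (log2 difference 3.6), with a summed level between 56.1 and 102 in HA22T and between 19.7 and 29.4 in PLC5. Epithelial markers were not called by limma (0 of 3 tested). Their median log2 difference was -0.83, on the side of lower in PLC5, and CDH1 and KRT8 had an unadjusted limma p below 0.05. KRT8 and KRT18 were above background on all arrays of both lines. Of 5 markers of endothelial cells, leukocytes and fibroblasts tested, PECAM1 was higher (5.41) and CD14 lower (-3.86) in PLC5, COL3A1 was above background on 0 arrays, and the summed level was between 24.2 and 45.6 in HA22T and between 34.1 and 49.9 in PLC5. The part of these markers in the differences of the FGF members was not tested.

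The other genes of the pathway were compared between the lines with siControl. Over all 17417 genes tested, each read from its leading probe, 12.4% were called higher and 14.2% lower in PLC5, which is the background for the counts of each list. Among the 13 other secreted ligands, 10 were tested and FGF1, which binds all FGF receptors, was lower in PLC5 (log2 difference -1.08, SE 0.29, adjusted p = 0.0188). No gene (0) of this list was called lower with the slide as a block, with the methods' t-test, without HA22T siControl replicate 1 or without PLC5 siControl replicate 2 or 3. The intracellular homologous factors, which are not secreted, had FGF13 lower (-1.19) of 2 tested. FGFRL1, a receptor without a kinase domain, was lower (-1.09, adjusted p = 0.00766) among 3 receptor and binding proteins tested, and KL, the other Klotho protein, was not tested because it was dim. None of these 3 lists had a gene called higher in PLC5, and with so few genes nothing is read from this beside the 12.4% over all genes.

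Of 22 heparan sulphate genes tested, 3 were higher, close to the background share, and 7 lower in PLC5, beside 12.4% and 14.2% over all genes, with a median log2 difference of 0.07. The glypicans GPC3, a marker of HCC, and GPC6 were higher (4.59 and 3.30), as was the syndecan SDC1 (2.35). GPC1 was lower (-2.39), together with HS6ST2 (-1.95), which adds sulphate to heparan chains, and EXT1 (-1.93), which lengthens them. SULF1, which removes sulphate from heparan chains, was above background on no PLC5 array and was at least 25.0-fold higher in HA22T (limma, adjusted p = 7.95e-05). SULF1 entered the test through HA22T alone, so its call was bound to show a difference and adds no support. Its p-value uses PLC5 values below background. Changes thus ran both ways within the list.

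Of 12 adaptors and proximal signalling genes tested, NCAM1, an adhesion molecule that can bind FGFR1, was lower in PLC5. Its log2 difference was -4.52 (limma, adjusted p = 6.16e-05), with 1 of 3 PLC5 arrays above background. The p-value uses PLC5 values not well above background, so this call adds little support. FRS2, GRB2, SOS1, PTPN11 and PLCG1 were not called. Of 14 feedback inhibitors and target genes tested, 4 were higher and 6 lower in PLC5, beside 12.4% and 14.2% over all genes, with a median log2 difference of -0.31. The inhibitors SPRY1 (3.28), DUSP6 (2.35) and SPRY4 (1.23) and the ETS factor ETV4 (2.01) were higher. The transcription factors FOSL1 (-5.56), ETV1 (-2.62) and ETV5 (-1.89) and the inhibitor SPRY2 (-2.0) were lower. The target genes therefore did not move one way, and members of the same family (SPRY1 and SPRY2, ETV4 and ETV5) differed in opposite directions.

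The bile acid genes, which FGF19 acts on through FGFR4 and KLB, had 4 of 10 tested genes higher and 1 lower in PLC5, beside 12.4% and 14.2% over all genes, with a median log2 difference of 1.36. The bile acid receptor NR1H4 (FXR) was higher (6.03, limma, adjusted p = 1.05e-06, above background on 1 of 3 HA22T arrays). Its p-value uses HA22T values not well above background, so this call adds little support. Also higher were the bile acid exporter subunit SLC51B (4.98), the repressor NR0B2 (SHP, 2.42) and its partner NR5A2 (1.72). CYP27A1, an enzyme of the alternative pathway of bile acid synthesis, was above background on no PLC5 array and at least 12.7-fold higher in HA22T. CYP27A1 was the 1 gene called lower, and it entered the test through HA22T alone, so its call adds no support. CYP7A1, the rate-limiting enzyme of the classic pathway, had values near -3.55 in HA22T and -3.45 in PLC5 and was not called (adjusted p = 0.905).

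Of 8 FGF21 regulators tested, 3 were higher in PLC5 and none (0) lower, beside 12.4% and 14.2% over all genes, and the methods' t-test called 1 higher. These were MLXIPL (ChREBP, 2.43), ATF4 (1.78) and XBP1 (1.21), factors of the carbohydrate and stress responses, while FGF21 itself did not differ beyond its spread. PPARA, the fasting factor, was not called (0.70, adjusted p = 0.251). Of 8 neighbours of FGF19 on chromosome 11q13 tested, MYEOV was lower in PLC5 (-1.84), and CCND1 (-0.09, SE 0.23) was not called.

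**Figure D4:**
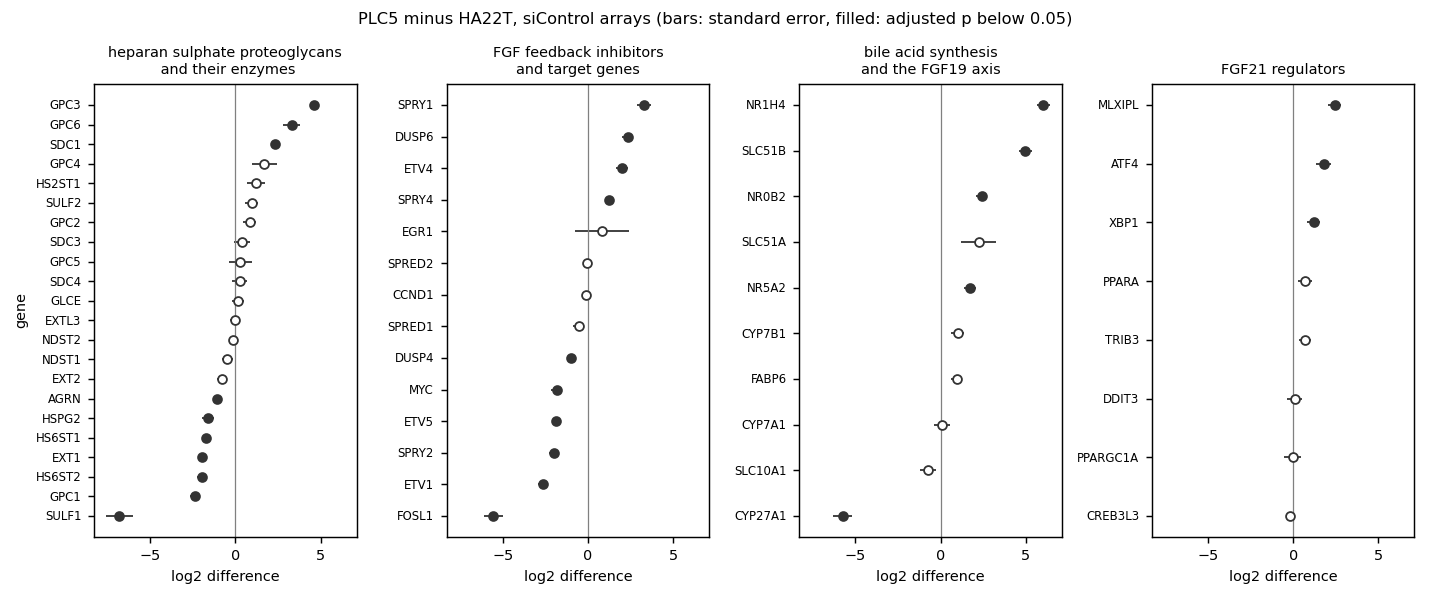
Log2 difference, PLC5 minus HA22T with siControl (horizontal axis), of the tested genes of 4 lists around the FGF pathway; bars are standard errors and filled circles have an adjusted p below 0.05. Called genes lie on both sides of 0 among the heparan sulphate genes (GPC3 at 4.59, GPC1 at -2.39) and the target genes, and the 3 called FGF21 regulators lie above 0.

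Knockdown of GALNT1 was the second question. In HA22T, 8 members were tested on 12 probes and none (0) was called by limma, beside 0.00275% of all 36327 probes. FGFR1 and FGF8 met the thresholds of the study's methods (1.5-fold or more, with p below 0.05 before adjustment) when the p was that of limma. Both were lower with siGALNT1, beside 1.05% of all tested probes lower by this criterion. Limma is not among the tests that the study names, and its spread was shared over all 4 groups. The leading FGFR1 probe and the FGF8 probe were the 2 of 12 member probes at an unadjusted limma p below 0.05, beside 1086 of all probes. The methods' t-test also called 0 members after adjustment. The leading FGFR1 probe read 2.24, 1.27 and 2.29 with siGALNT1 against 3.03, 2.63 and 2.93 with siControl. Each siGALNT1 array was below each siControl array, and the log2 difference was -0.93 (SE 0.32, 95% confidence interval -1.63 to -0.23, limma, adjusted p = 1.00). An exact permutation test of 3 against 3 arrays gave a two-sided p of 0.1, and with the replicate pairs kept 0.25, in each case the smallest that the design allows. The second FGFR1 probe also had no overlap, with a log2 difference of -0.37 (-1.15 to 0.41). FGF8, over 2 siGALNT1 arrays, had a log2 difference of -0.67 (-1.28 to -0.07, limma, adjusted p = 1.00) with the arrays not paired. With the replicate block, over 2 pairs, FGF8 differed by -0.56, and the interval of -1.47 to 0.35 held 0. For the leading FGFR1 probe the interval with this block was -1.49 to -0.37.

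The remaining members tested in HA22T had intervals that hold 0 when the arrays were not paired. The log2 differences were 0.25 (-0.39 to 0.88) and -0.16 (-0.79 to 0.47) for the FGFR3 probes and -0.27 (-1.11 to 0.57) for FGFR4. FGF18 (0.32) and FGF21 (0.12) had intervals that hold 0, as had both probes of FGF2 (-0.65 and -0.74) and the leading FGFR2 probe (-0.27). FGF2 was lower with siGALNT1 in 3 of 3 replicate pairs on both probes, by log2 differences of -0.54, -1.06 and -0.36 on the leading probe and -0.55, -0.88 and -0.78 on the second. With the replicate block the interval was -1.79 to 0.48 on the leading probe and -1.26 to -0.22 on the second, which thus lay below 0 before adjustment (limma, adjusted p = 0.821 for the second). An exact test over the pairs gave a two-sided p of 0.25 for either FGF2 probe, the smallest that 3 pairs allow. The second FGF2 probe was well above background on 2 of 3 siGALNT1 arrays. Both FGFR1 probes were also lower in 3 of 3 pairs, and the leading FGFR3 and KLB probes were higher in 3 of 3. That KLB probe was above background on 1 siGALNT1 array and 0 siControl arrays. Its log2 difference was -0.045 with quantile normalization. The share of all probes with such pairs was not computed, so nothing is read from these pair counts. FGF19 and the leading KLB probe were too dim in HA22T to be tested, and the dimmer KLB probe differed by -0.31 (-1.29 to 0.68).

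In PLC5, 9 members were tested on 13 probes, and none (0) was called or met the criterion, beside 0% of all 38070 probes called and 0.996% lower by the criterion. Over all probes, 508 had an unadjusted p below 0.05, against 0 of the member probes tested, and the methods' t-test called 0 probes. FGFR4 (0.01, 95% confidence interval -0.74 to 0.76), KLB (0.00, -0.91 to 0.91 on the leading probe) and FGFR3 (-0.02, -0.66 to 0.61) had log2 differences near 0. FGFR1 read -0.37, -0.46 and -0.96 with siGALNT1 and 0.03, -0.40 and -0.44 with siControl, which overlap (-0.33, -1.03 to 0.37). FGF19 read -4.62, -4.84 and -4.43 against -4.79, -4.0 and -4.27 (-0.28, -1.35 to 0.79). FGF2 was too dim to be tested. The ligands FGF8 (-0.12), FGF18 (-0.02) and FGF21 (-0.05) also had intervals that hold 0. Within the 2 slides, FGFR1 differed by -0.41 (1 pair) and -0.29 (2 pairs), FGFR4 by -0.11 and 0.07, and FGFR2, whose log2 difference over both slides was -0.63 (-1.82 to 0.55), by -1.20 and -0.35.

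The difference between the lines in the effect of siGALNT1 was tested for all 15 member probes, and none (0) was called, beside 0% of 39100 probes, with 0 member probes and 952 of all probes at an unadjusted p below 0.05. For FGFR1 the effect was 0.60 log2 units higher in PLC5 (95% confidence interval -0.39 to 1.59, adjusted p = 0.988), and for FGF8 0.55 (-0.26 to 1.36). The lower FGFR1 and FGF8 of HA22T were therefore not shown to differ from PLC5. In the other pathway lists limma called no gene (0) in either line with siGALNT1. At an unadjusted p below 0.05 stood ETV1 (log2 difference -0.72) and NR0B2 (1.15) in HA22T and the intracellular factor FGF11 (-1.10) in PLC5. The bile acid genes had a median log2 difference of 0.58 in HA22T and -0.15 in PLC5. The feedback inhibitors and target genes had a median log2 difference of -0.18 in HA22T and 0.07 in PLC5, beside -0.10 and 0.04 over all genes tested.

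**Figure D5:**
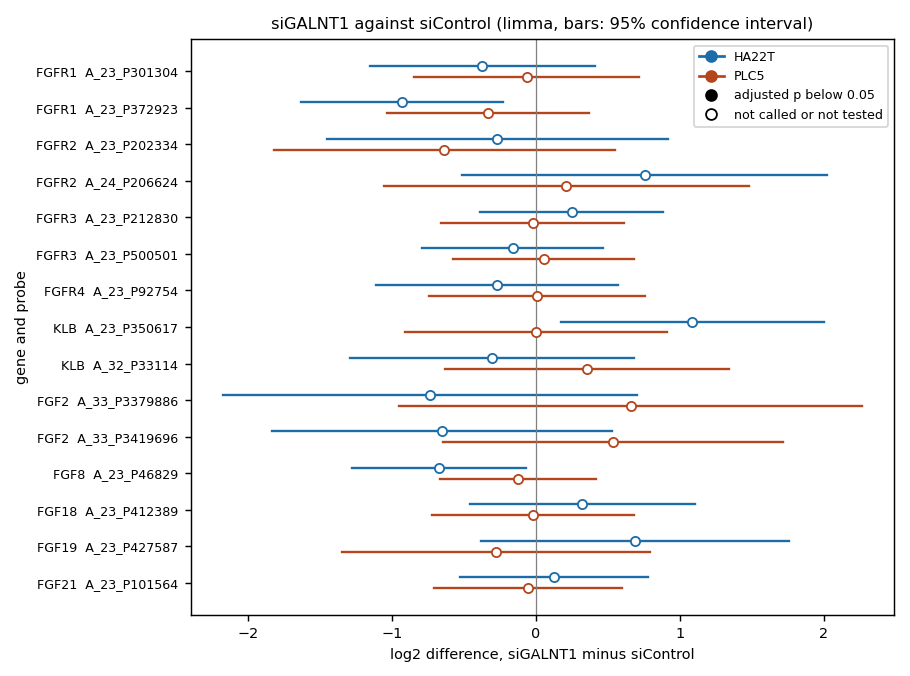
Log2 difference, siGALNT1 minus siControl (horizontal axis), of each member probe in HA22T (blue) and PLC5 (red); bars are 95% confidence intervals from limma. No circle is filled, since no member was called. With the arrays not paired, as drawn, the HA22T intervals of the leading FGFR1 probe (-1.63 to -0.23) and FGF8 (-1.28 to -0.07) lie below 0 before adjustment.

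For members above background on all 12 arrays on the leading probe, the genes with the most similar pattern were read from Pearson's r over the 12 arrays among 11848 genes. FGFR1 was most like C1orf159 (r = 0.99), ETV1 (0.99) and SLC35B3 (0.98). FGFR3 was most like LIN28B (0.99), MLF1 (0.99) and BCAS1 (0.98). FGF21 was most like KLK14 (0.89), CYSLTR1 (0.89) and CPSF2 (0.88). The 12 points share the line difference for FGFR1 and FGFR3, and within the 6 arrays of a line r of FGFR1 with ETV1 was 0.95 in HA22T and 0.54 in PLC5. These values describe the arrays and carry no test. ETV1, an ETS factor among the FGF target genes, was the gene of the lists above that appeared here.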

How the data were processed

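Dye-labeled cDNA made from total RNA of the 12 samples was hybridized by the authors to Agilent SurePrint one-color human arrays, and images were read with Agilent Feature Extraction 10.5.1.1, per the submitters' processing notes. The deposited intensity values are the processed, background-subtracted signal of each spot, with flags. The authors also deposited log2 values per probe, which served as an alternative. Their column medians ran from -2.71 to -2.46, and set against the scanner values of the same arrays they correlated at 1.0 and differed by a median of 0.09 to 0.16, so scale and direction were the same and the centring differed slightly.

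The log2 of the processed signal minus the 75th percentile of each array was computed. Non-uniform spots were left out, as the study's methods do, and spots sharing a probe were averaged, giving 50599 probes. Probes were named through RefSeq accessions (28174 matched). Tests were limited to probes whose signal stood well above background in 3 or more of the 6 arrays compared. The 4 groups were fitted together with limma 3.58.1 (R 4.3.3, lmFit and eBayes), with Benjamini-Hochberg adjustment over all tested probes and a threshold of 0.05. The fit was tested on simulated data. The leading probe of a gene is the brightest one with a value in every group. Where no array of a group was above background, its fold change was given as a bound on the main signal scale. With normexp the KLB and FGF2 differences with siControl were smaller than their bounds. Student's t-test, one of several tests that the study's statistics section names, was run on the same values as the methods' t-test.

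The members and gene lists were chosen with earlier results of these data known. All members were named, with up to 4 called genes a direction from each list by size of the line difference with siControl; other genes, including those named as not called and the markers, were chosen after their values were seen. Replicate numbers are shared between groups. Deviations of same-numbered arrays correlated at 0.55, 0.40 and 0.43 over 22282 probes in HA22T, so these arrays were taken as paired by their values, and at 0.71, -0.02 and 0.16 in PLC5, which were not. Replicates of a group correlated between 0.97 and 0.99. Alternatives covered background correction, scaling, filters, slide, replicate block, tests and leaving out each array. The number of arrays limits the precision. The values of 1 marker are not reported here.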

Additional observations from a re-analysis of the deposited data

How the results depend on the processing

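The count of member genes called was within 1.5 times of the reported one under every alternative run, with 1 exception. Requiring all 6 arrays above background left 2 of 6 genes called between the lines with siGALNT1, since fewer probes were tested. Between the lines with siControl the count ran from 4 to 7 beside the reported 6. The requirement of all 6 arrays left the leading KLB and FGF2 probes, which had the largest differences, untested in both line comparisons. The replicate block changed no call of a member. With it, FGFR1 in HA22T kept a log2 difference of -0.93 (limma, adjusted p = 0.821), and 6 members were called in each line comparison. Within a line the block was the replicate pair, and between the lines it was the replicate number alone. Deviations of same-numbered arrays of the 2 lines correlated between -0.29 and 0.35, which shows no steady pairing. Under other settings, signs turned for differences that were not called. In HA22T siGALNT1 against siControl these were FGFR2 with the mean over probes (0.25), FGFR4 with the deposited table (0.0042) or non-uniform spots kept (0.019) and the dimmer KLB probe with normexp (0.15). In PLC5 they were the second FGFR1 probe (0.0167) and FGF18 (0.0121) with normexp, and FGFR3 with the mean over probes (0.0171). Between the lines with siControl, the slide as a block gave -0.11 for FGFR2, -0.0544 for FGF21 and 0.36 for the brighter GALNT1 probe. With siGALNT1, FGFR2 was -0.0315 with normexp, -0.078 with quantile normalization, -0.48 with the slide and -0.16 with the percentile taken without non-uniform spots, an alternative added after the data were seen, and FGF21 was -0.0805, -0.14, -0.23 and -0.16. In the difference of effects, FGFR4 was -0.0091 with non-uniform spots kept and KLB 0.063 with quantile normalization. The cause was not tested.

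Leaving out 1 array turned signs within these ranges. In HA22T siGALNT1 against siControl they were -0.51 to 0.22 (FGFR2), -0.0020 to 0.49 and -0.27 to 0.0066 (FGFR3 probes), -0.67 to 0.12 (FGFR4), -0.77 to 0.28 (dimmer KLB probe) and -0.0623 to 0.30 (FGF21). In PLC5 they were -0.41 to 0.18 (second FGFR1 probe), -0.059 to 0.59 (second FGFR2 probe), -0.12 to 0.13 and -0.0828 to 0.33 (FGFR3 probes), -0.0931 to 0.21 (FGFR4), -0.27 to 0.16 (KLB), -0.23 to 0.23 (FGF18) and -0.30 to 0.15 (FGF21). Between the lines with siGALNT1 they were -0.43 to 0.47 (FGFR2) and -0.11 to 0.25 (FGF21), and in the difference of effects -0.86 to 0.0443 (FGFR2), -0.11 to 0.68 (FGFR4) and -0.42 to 0.0224 (FGF21).

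Between the lines with siGALNT1, the methods' t-test also lost the second probes of KLB (adjusted p = 0.0670) and FGF2 (0.0786). The share of called probes higher in PLC5 there was 57.2%, 45.2% with quantile normalization and 40.8% with the percentile taken without non-uniform spots, and with siControl 49.9%, 41.4% and 42.6%. Requiring all 6 arrays above background left NCAM1 and CYP27A1 untested with siControl. Median scaling moved the median log2 difference of all genes with siControl from -0.10 to -0.21, and quantile normalization that with siGALNT1 from -0.07 to -0.17.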
